A study of Homo sapiens with 6 samples.

Results

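The glucocorticoid receptor gene NR3C1 and 8 of its target genes (FKBP5, KLF9, TSC22D3, SGK1, PER1, TIPARP, ZBTB16 and DUSP1) were examined for binding of SWI/SNF, a complex that remodels chromatin, in 2 prostate cancer cell lines. A peak was taken for a gene when its summit lay inside the gene's span or within 100 kb of either end, on the RefSeq annotation of GRCh38 (hg38). These 9 genes, of 20033 protein-coding genes in the annotation, held 106 of 36174 BRG1 peaks and 60 of 25706 SMARCC2 peaks in LNCaP, and 115 of 44308 BRG1 peaks and 120 of 47615 SMARCC2 peaks in MR49F. The genes were selected on earlier results that included peak counts of these same lists, and the peaks were chosen by summit position, so the counts and peak strengths below are a description and carry no test.

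BRG1, encoded by SMARCA4, is an ATPase of SWI/SNF, and SMARCC2 (BAF170) is one of its scaffold subunits. Both were mapped by ChIP-seq after fixation with 2 mM disuccinimidyl glutarate for 45 min and 1% formaldehyde for 10 min, with 4 µg of antibody. LNCaP is an established prostate adenocarcinoma line that responds to the antiandrogen enzalutamide. Here it was grown in serum-containing medium, and no drug is given for it. MR49F is an enzalutamide-resistant derivative of LNCaP, grown in the same kind of medium with 10 µM enzalutamide, so line and drug exposure cannot be told apart. Every line and antibody is represented by 1 library, and an input per line was not analysed here. With no replicates, no difference between the lines has a replicate check, and the Wilson 95% intervals given with shares cover counting error only.

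The glucocorticoid receptor is a steroid receptor that is held in the cytoplasm by HSP90 and its cochaperones until cortisol binds it. It then enters the nucleus, binds DNA at palindromic elements that the androgen receptor can also bind, and recruits coactivators and SWI/SNF. In prostate cancer it is known for taking over part of the androgen receptor's targets when the latter is blocked. Receptor binding, expression and nucleosome position were not measured here.

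The lists share a threshold on q but differ in their length and in the lowest number of tags called, which bears on what a missing peak means. A peak's strength is given as the authors' −log10 q, as its percentile within its own list, and as the number of tags at the summit, recovered from the authors' fold and p. Tags are counts of single libraries, not scaled for depth, so equal tags in different lists do not show equal occupancy. The lowest number of tags at a called peak was 13 in LNCaP BRG1, 14 in LNCaP SMARCC2 and 10 in each MR49F list. The median was 27 or 28 tags in all 4 lists. Where the local background was higher, a call needed more tags. A gene without a peak in a list therefore had no summit that passed the caller's threshold of 0.01 on q, which does not show that the protein was absent. The prostate identity of both lines was checked with 8 luminal genes (KLK3, KLK2, TMPRSS2, HOXB13, FOXA1, FOLH1, STEAP2, SLC45A3), which held 6 to 25 peaks each in every list. The defining fibroblast gene DCN held 0 peaks in all 4 lists and the leukocyte gene PTPRC held 0 in LNCaP and 1 in each MR49F list, although the 5 leukocyte genes together held 15 to 26 peaks per list and the 5 fibroblast genes 6 to 13.

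Promoter sequences of 5 start sites are shown first, because the results below return to them. Each is the RefSeq sequence on GRCh38.p14 from 250 bases before to 50 bases after the start, written 5′ to 3′ on the gene's strand. Capitals mark a single arm of the receptor's palindromic response element (AGAACA), the forkhead site (TGTTTAC), the E-box bound by the circadian clock factors (CACGTG) and the cAMP response element (TGACGTCA), matched on either strand. The FKBP5 distal start and the PER1 start are shown because both antibodies had a peak there in MR49F and LNCaP had none within 1 kb. The other 3 are starts occupied in both lines, given for comparison.
FKBP5 distal start (chr6:35728534-35728833, minus strand): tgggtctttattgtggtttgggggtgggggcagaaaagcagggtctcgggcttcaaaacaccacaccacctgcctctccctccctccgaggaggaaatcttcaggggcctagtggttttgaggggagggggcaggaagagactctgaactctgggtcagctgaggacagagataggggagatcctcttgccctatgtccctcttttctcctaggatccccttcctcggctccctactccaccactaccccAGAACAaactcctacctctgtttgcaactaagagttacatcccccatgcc
FKBP5 internal start (chr6:35688866-35689165, minus strand): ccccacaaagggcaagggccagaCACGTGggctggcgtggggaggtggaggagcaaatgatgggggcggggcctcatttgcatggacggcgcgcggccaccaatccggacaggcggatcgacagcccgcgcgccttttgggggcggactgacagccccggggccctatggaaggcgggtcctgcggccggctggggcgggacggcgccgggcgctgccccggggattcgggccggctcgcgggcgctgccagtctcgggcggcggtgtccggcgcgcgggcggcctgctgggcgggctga
PER1 start (chr17:8152355-8152654, minus strand): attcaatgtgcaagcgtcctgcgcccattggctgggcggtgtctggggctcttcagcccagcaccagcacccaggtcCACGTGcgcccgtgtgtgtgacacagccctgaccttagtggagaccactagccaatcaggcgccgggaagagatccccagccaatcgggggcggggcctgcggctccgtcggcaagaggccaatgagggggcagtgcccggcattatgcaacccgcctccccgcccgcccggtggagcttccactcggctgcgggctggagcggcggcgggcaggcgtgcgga
TSC22D3 internal start (chrX:107717013-107717312, minus strand): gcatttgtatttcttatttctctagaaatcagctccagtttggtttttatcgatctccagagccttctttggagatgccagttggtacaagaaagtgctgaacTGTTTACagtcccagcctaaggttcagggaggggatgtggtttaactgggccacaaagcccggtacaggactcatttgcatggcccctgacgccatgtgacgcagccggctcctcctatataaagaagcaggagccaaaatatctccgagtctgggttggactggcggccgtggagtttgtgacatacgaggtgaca
DUSP1 start (chr5:172771146-172771445, minus strand): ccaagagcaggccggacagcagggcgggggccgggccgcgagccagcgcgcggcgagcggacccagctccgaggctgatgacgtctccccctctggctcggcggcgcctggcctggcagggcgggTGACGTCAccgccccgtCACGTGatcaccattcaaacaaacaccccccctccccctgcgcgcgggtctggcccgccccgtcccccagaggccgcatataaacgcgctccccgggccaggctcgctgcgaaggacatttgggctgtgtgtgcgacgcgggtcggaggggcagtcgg

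The promoter table held 8 of the 9 genes, with 22 start sites, several of which lie close together within 1 gene. Of these 22 windows, 7 (31.8%) held a peak of both antibodies in MR49F and none in LNCaP, against 10.5% of 22198 promoters in the table. At 5 of these 7 a LNCaP peak lay within 1 kb of the window, so they are not starts that LNCaP lacked. The remaining 2 (9.09%, against 5.32% of all promoters) were the FKBP5 distal and PER1 starts, a limit of 1 kb chosen after seeing the data. Counted by overlap with the 300 bases alone, LNCaP peaks reached few of the 22: 2 windows (9.09%) with BRG1 and 1 (4.55%) with SMARCC2, where all promoters gave 23.6% and 11.8%. MR49F peaks reached 10 windows (45.5%) with BRG1 and 9 (40.9%) with SMARCC2, against 36.2% and 30.5% of all promoters. In 11 windows (50%) there was no peak in any list, close to the 54.1% of all promoters, and 0 windows held a peak of all 4 lists, against 7.60%. These counts share starts of the same gene and the choice of genes used the same peaks, so they describe the 22 windows.

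The searched motifs were sparse in these windows. AGAACA occurred in 2 of the 22 promoters (9.09%), at the FKBP5 distal start and at an SGK1 start, and in 11.7% of all promoters. The full palindrome, 2 inverted arms with 3 bases between them, occurred in 0, and with up to 2 mismatches again in 0, against 0.955% of all promoters. TGTTTAC occurred in 2 (9.09%, against 2.85%), at NR3C1 and at the TSC22D3 internal start. The AP-1 site TGANTCA occurred in 1 (4.55%, against 6.15%), at NR3C1. CACGTG occurred in 3 (13.6%, against 8.34%), at FKBP5, PER1 and DUSP1, and TGACGTCA in 1 (4.55%, against 2.26%), at DUSP1. The last pair of motifs was added after the promoters had been seen. A match describes the letters in the window and says nothing of a factor's binding, and likewise for no match.

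Taken over the 9 genes, the number of peaks differed between lines about as it did over the whole lists. BRG1 peaks numbered 106 in LNCaP and 115 in MR49F, an MR49F share of 52.0% (45.5 to 58.5), against 55.1% over the whole lists. SMARCC2 peaks numbered 60 in LNCaP and 120 in MR49F, a share of 66.7% (59.5 to 73.1), against 64.9%. The list as a whole thus did not stand apart, and the genes within it went different ways, as the plot of peaks by gene shows.

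**Figure D1:**
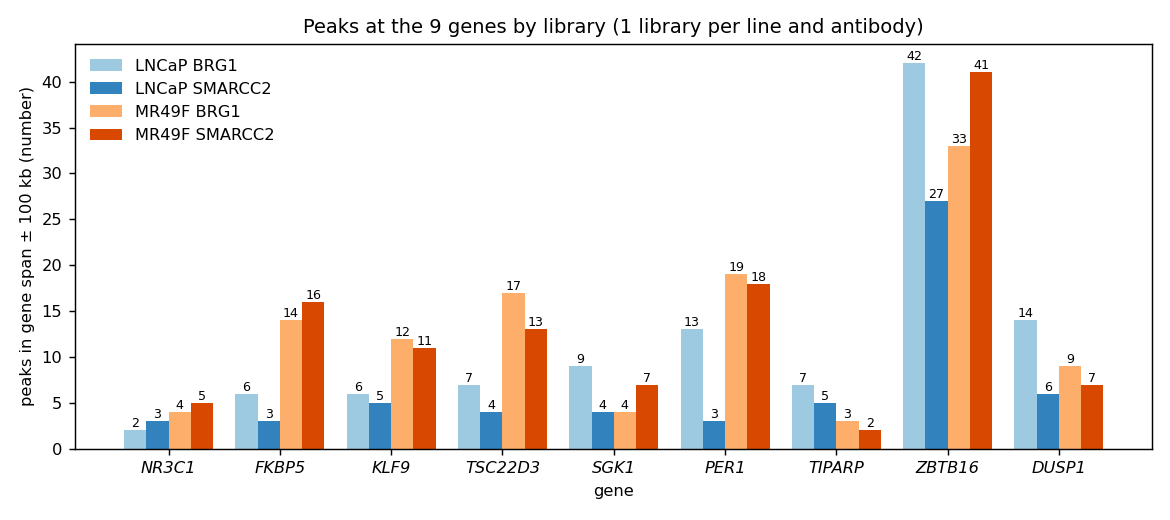
Number of peaks (y axis) in each library at each of the 9 genes (x axis), with gene spans extended by 100 kb; bars are single libraries, so there are no error bars. FKBP5, KLF9, TSC22D3, PER1 and NR3C1 have taller MR49F bars with both antibodies, TIPARP has taller LNCaP bars with both, and ZBTB16 holds more peaks than any of the others in every list.

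With BRG1 and with SMARCC2 alike, 5 of the 9 genes held more peaks in MR49F than in LNCaP (NR3C1, FKBP5, KLF9, TSC22D3 and PER1). Of 18931 protein-coding genes with at least 1 peak in the same kind of window, 57.0% did, so this count lies near the background. A difference of at least 2 times with both antibodies was found at FKBP5, KLF9 and TSC22D3, 3 of 9, where the background was 20.1%. TIPARP alone had more LNCaP peaks with both antibodies (background 4.17%), also by at least 2 times (background 0.946%). SGK1, ZBTB16 and DUSP1 had fewer BRG1 and more SMARCC2 peaks in MR49F, a pattern found at 14.0% of genes. Among the 10000 strongest peaks of each list this did not hold: SGK1 had 2 MR49F and 1 LNCaP peak with BRG1 and 1 and 3 with SMARCC2, ZBTB16 had 12 and 15 with SMARCC2, and DUSP1 had 3 and 3 with BRG1. There TIPARP had 2 SMARCC2 peaks in each line, and ZBTB16 was the gene with more LNCaP peaks by both antibodies. A turn of the antibodies' order, with more BRG1 than SMARCC2 peaks in LNCaP and fewer in MR49F, was found at FKBP5, SGK1 and ZBTB16, 3 of 9, and at 20.3% of genes.

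**Figure D2:**
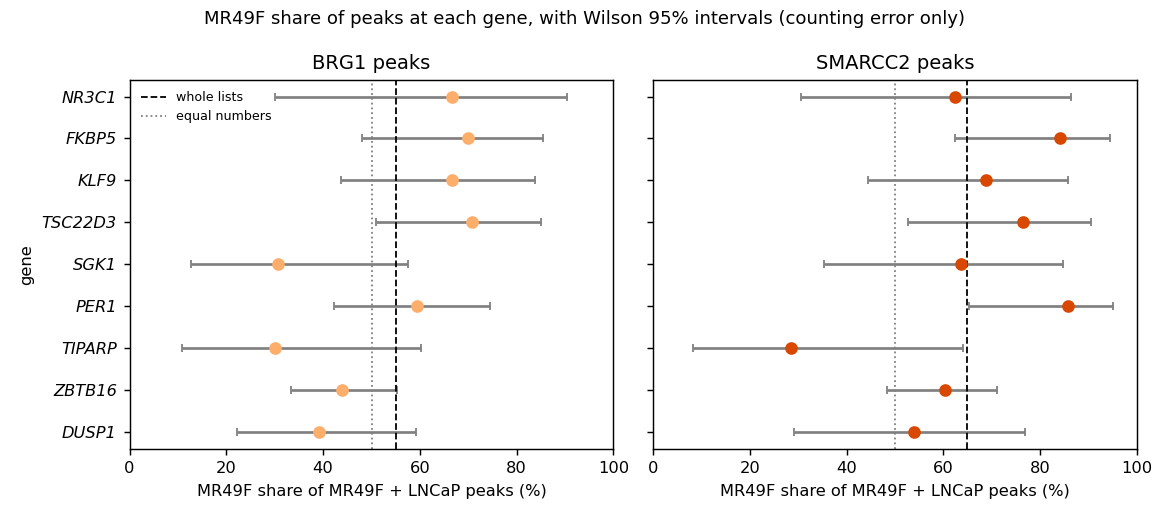
MR49F share of the MR49F plus LNCaP peaks (x axis, %) at each gene (y axis), for BRG1 at the left and SMARCC2 at the right; points are shares, bars are Wilson 95% intervals for counting error, the dashed line is the share over the whole lists (55.1% and 64.9%) and the dotted line marks equal numbers. The points of TIPARP, SGK1, ZBTB16 and DUSP1 lie below the dashed line with both antibodies. Most intervals cross it, but the SMARCC2 interval of TIPARP lies just below it and that of PER1 just above it.

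When the peaks of the 4 lists that share at least 1 bp were joined, the 9 genes held 162 regions. Of these, 35 (21.6%) had a peak in all 4 lists, against 22.7% of 65483 regions genome-wide. Regions with a peak of both antibodies in MR49F and of neither in LNCaP, called MR49F-only below, numbered 30 (18.5%, 13.3 to 25.2), against a background of 18.3%. The reverse, LNCaP-only regions, numbered 6 (3.70%, 1.71 to 7.84), against 3.67%. By number, the classes matched the genome-wide shares within counting error. Of the MR49F-only regions, 7 of the 30 (23.3%) had a BRG1 peak in the top 10% of its list and 6 (20%) a SMARCC2 peak, against 5.24% and 7.20% of all 11990 MR49F-only regions. FKBP5 supplied the BRG1 peaks among these in the regions that begin at 35485623, 35721713, 35725176 and 35731304. All but the last also had such a SMARCC2 peak. The other regions lay at KLF9, PER1 and ZBTB16 for BRG1, and at TSC22D3, PER1 and ZBTB16 for SMARCC2. The median percentile of the MR49F-only regions was 57.4 with BRG1, against 47.6 for all, and 50.3 with SMARCC2, against 49.1 for all. The regions in all 4 lists also held more top peaks than their class, with 42.9% against 21.3% for MR49F BRG1 and 28.6% against 21.5% for LNCaP BRG1, but 14.3% against 15.6% for LNCaP SMARCC2. Of the 6 LNCaP-only regions, 0 held a peak in the top 10% of either list, with summits of 19 to 38 tags.

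The remaining 91 regions were called unevenly by the 2 antibodies. The most frequent of these patterns was a LNCaP BRG1 peak alone, at 23 regions (14.2%, against 10.1% genome-wide). Next came regions with both antibodies in MR49F and BRG1 alone in LNCaP, at 20 (12.3%, against 8.66%), among them the TSC22D3 internal start and the DUSP1 start. These LNCaP peaks lacked a SMARCC2 call, and the shorter LNCaP SMARCC2 list bears on both patterns, its part in them not tested. MR49F BRG1 alone gave 19 regions and MR49F SMARCC2 alone 16.

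Most peaks lay away from the start sites of the genes. Peak and region locations over the whole lists are not given here. Whether the location shares below differ from those of other genes was therefore not tested. For the 8 genes with starts in the promoter table, peaks within 1 kb of a start of the gene itself numbered 8 of 64 in LNCaP BRG1 (12.5%), 4 of 33 in LNCaP SMARCC2 (12.1%), 8 of 82 in MR49F BRG1 (9.76%) and 8 of 79 in MR49F SMARCC2 (10.1%). Elsewhere inside the gene lay 11, 5, 17 and 19 of these peaks in the same order, and between protein-coding genes 25, 11, 28 and 24, the largest class in every list. With ZBTB16, whose peaks lie mostly inside its long span, those inside the gene came to 41, 27, 39 and 46 and were the largest class instead. Of the 30 MR49F-only regions, 2 were at a start of the gene (FKBP5 and PER1), 2 at a start of another gene, 8 elsewhere inside the gene, 8 inside another gene and 10 between protein-coding genes. Of the 6 LNCaP-only regions, 0 were at a start, 3 lay inside the gene, 1 inside another gene and 2 between genes.

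NR3C1 encodes the glucocorticoid receptor itself and is a long gene with several first exons (chr5:143277931-143435512, minus strand). Its window was sparsely occupied, with 2 LNCaP BRG1, 3 LNCaP SMARCC2, 4 MR49F BRG1 and 5 MR49F SMARCC2 peaks. The MR49F share was 66.7% (30.0 to 90.3) with BRG1 and 62.5% (30.6 to 86.3) with SMARCC2, intervals that include equal numbers and the whole lists. The background of the 10 Mb window around it, MR49F over LNCaP and relative to autosomes, was 0.954 with BRG1 and 1.01 with SMARCC2. Both lines thus had peaks in this window, at few places. Inside the NR3C1 span itself LNCaP had 1 BRG1 and 1 SMARCC2 peak, in different regions, and MR49F had 2 peaks with each antibody.

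At the cluster of GC-rich NR3C1 starts, a weak region (chr5:143403498-143404427) had a −log10 q of 2.45 in LNCaP SMARCC2, 4.05 in MR49F BRG1 and 4.48 in MR49F SMARCC2. Its MR49F summits had 13 tags each, near the lowest number called, and there was no LNCaP BRG1 peak. A stronger region lay inside the gene, upstream of these starts (chr5:143417761-143418797), with −log10 q of 4.67 in LNCaP BRG1, 18.9 in MR49F BRG1 and 34.2 in MR49F SMARCC2. Its summit tags, 31, 32 and 43, differed little between the lines with BRG1, so the −log10 q there also follows the local background. It was the strongest MR49F peak of the window with either antibody. The MR49F-only region (chr5:143226935-143227624) and the region in all 4 lists (chr5:143180865-143184369) both lay inside the neighbouring gene ARHGAP26. On other chromosomes, 5 genes had exactly the counts of NR3C1 in the 4 lists. The first 3 by symbol were ANO4, DCAF4 and GJB5, at a distance of 0 over the 4 libraries on log2 of peaks plus 1.

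FKBP5 encodes an HSP90 cochaperone that lowers the receptor's affinity for hormone, and it is induced by glucocorticoids and androgens (chr6:35573590-35728583, minus strand). It had 6 LNCaP BRG1, 3 LNCaP SMARCC2, 14 MR49F BRG1 and 16 MR49F SMARCC2 peaks. The MR49F share was 70.0% (48.1 to 85.5) with BRG1 and 84.2% (62.4 to 94.5) with SMARCC2. MR49F was higher with each antibody, and with SMARCC2 the interval excluded equal numbers but not the 64.9% of the whole lists. Local background ratios were 0.887 and 1.00 in a 10 Mb window, and 0.983 and 1.09 in a 5 Mb window.

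At FKBP5, 6 regions were MR49F-only and 3 were in all 4 lists. The distal start, whose sequence is printed above, lay in an MR49F-only region (chr6:35725176-35729727) with 86 BRG1 and 121 SMARCC2 tags at the summits and −log10 q of 67.8 and 105. Next to it, 5.95 kb into the gene, another MR49F-only region (chr6:35721713-35724723) had 55 and 139 tags and −log10 q of 40.2 and 158. It was the strongest FKBP5 peak of the MR49F SMARCC2 list, in rank 379 of 47615. On the other side a region inside ARMC12, 3.56 kb upstream of the distal start (chr6:35731304-35734256), had 52 and 38 tags. These 3 regions cover both sides of the distal start, where LNCaP had no peak with either antibody.

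The remaining MR49F-only regions of FKBP5 lay inside the gene (chr6:35610780-35612039), inside CLPSL1 (chr6:35782278-35782852) and inside TEAD3 beyond the gene's far end (chr6:35485623-35488801). The TEAD3 region was strong, with 75 BRG1 and 61 SMARCC2 tags. By contrast the internal start was occupied in both lines (chr6:35687407-35688883). Its −log10 q was 6.57 in LNCaP BRG1, 4.89 in LNCaP SMARCC2, 29.8 in MR49F BRG1 and 14.5 in MR49F SMARCC2. A LNCaP BRG1 peak overlaps the printed window there, and the MR49F peaks end 6 and 33 bp short of it. The strongest LNCaP BRG1 peak of the window lay deep in the gene, 85.4 kb downstream of the internal start (chr6:35602264-35603893), in a region called in all 4 lists. Summit tags there were 45 in LNCaP BRG1, 34 in LNCaP SMARCC2, 58 in MR49F BRG1 and 99 in MR49F SMARCC2, so both lines were occupied.

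**Figure D3:**
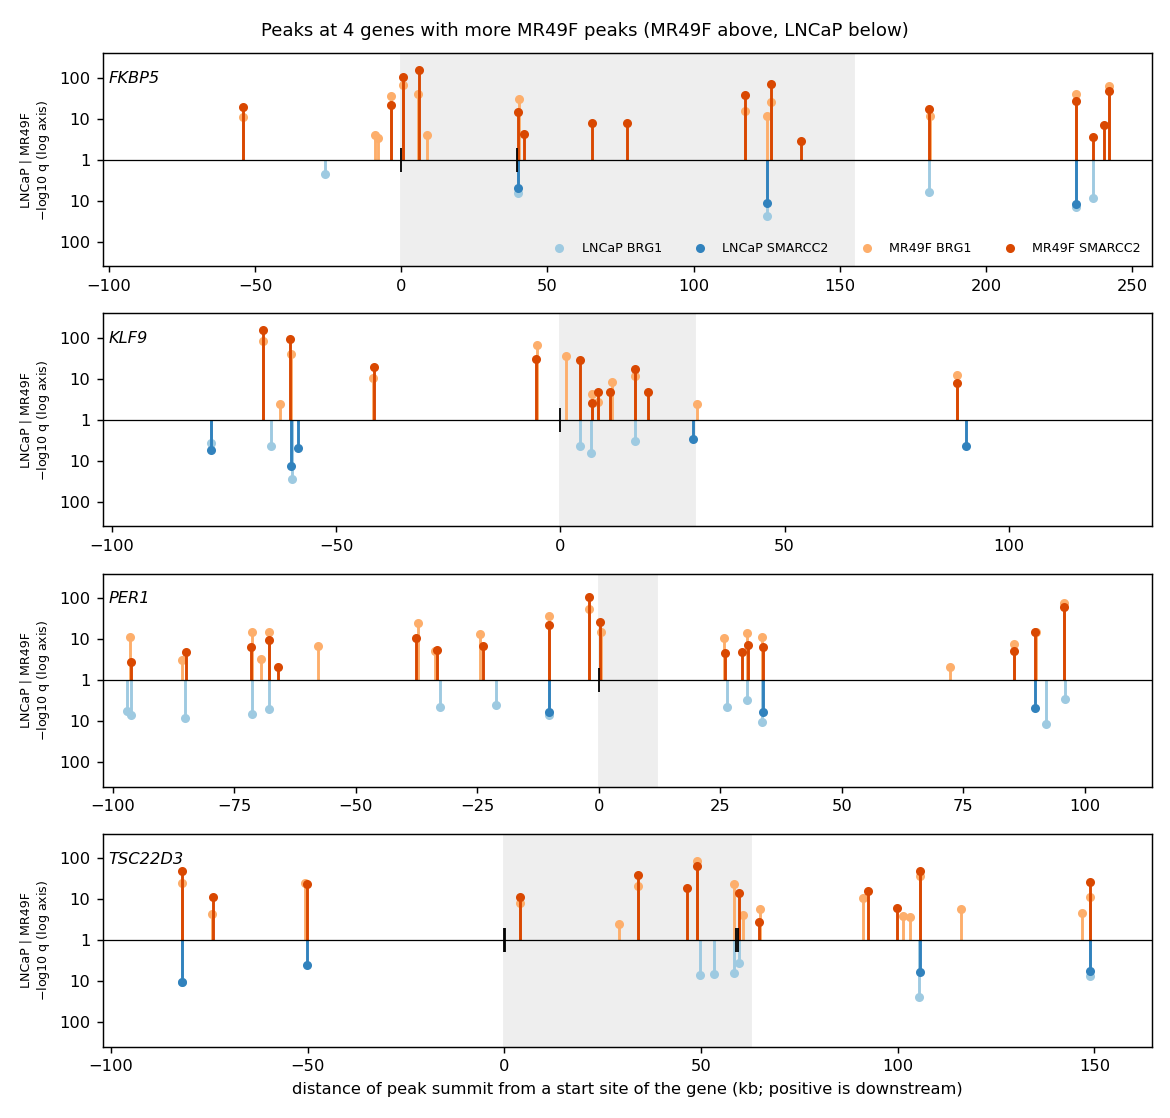
Summit positions (x axis, kb from a start site, positive downstream) and −log10 q (y axis, log scale) of every peak at FKBP5, KLF9, PER1 and TSC22D3, with MR49F above and LNCaP below the line; shading is the gene span and black ticks are start sites. The FKBP5 distal start at 0 and the PER1 start at 0 carry peaks of both antibodies above the line and none below it.

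KLF9, a Krüppel-like transcription factor that glucocorticoids induce in many tissues, lies on chromosome 9 (chr9:70384604-70414657, minus strand). It had 6 LNCaP BRG1, 5 LNCaP SMARCC2, 12 MR49F BRG1 and 11 MR49F SMARCC2 peaks. The shares were 66.7% (43.7 to 83.7) and 68.8% (44.4 to 85.8), both with intervals that include equal numbers. The local background ratios were 0.931 and 0.893, and 0.925 and 1.01 in a 5 Mb window.

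The strongest KLF9 peaks lay far upstream of the start. One region there (chr9:70477761-70481994) had −log10 q of 4.37 in LNCaP BRG1, 86.6 in MR49F BRG1 and 160 in MR49F SMARCC2, and no LNCaP SMARCC2 peak. Summit tags were 40, 110 and 170. Its neighbour (chr9:70473067-70476374) was in all 4 lists, with 58, 46, 75 and 111 tags in LNCaP BRG1, LNCaP SMARCC2, MR49F BRG1 and MR49F SMARCC2. Nearer the gene, an MR49F-only region 5.11 kb upstream of the start (chr9:70416812-70421785) had 87 BRG1 and 60 SMARCC2 tags. The 4 other MR49F-only regions, which begin at 70325949, 70402734, 70405806 and 70455578, had 16 to 36 BRG1 and 19 to 49 SMARCC2 tags. KLF9 also held a LNCaP-only region 78.0 kb upstream (chr9:70492167-70492902), with 21 and 27 tags. The KLF9 promoter window itself held no peak in any list.

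TSC22D3 encodes GILZ, a glucocorticoid-induced leucine zipper protein with anti-inflammatory action, and lies on chromosome X (chrX:107713221-107775988, minus strand). It had 7 LNCaP BRG1, 4 LNCaP SMARCC2, 17 MR49F BRG1 and 13 MR49F SMARCC2 peaks. The shares were 70.8% (50.8 to 85.1) and 76.5% (52.7 to 90.4). Here the local background moved with the peaks: it was 1.35 times higher in MR49F with BRG1 and 1.34 times with SMARCC2, the highest ratios of the 9 genes, and its part in the counts was not tested.

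The TSC22D3 internal start carried peaks in 3 lists (chrX:107715696-107719555). The MR49F peaks spanning the window printed above had 47 BRG1 and 28 SMARCC2 tags at summits outside it. LNCaP BRG1 had a peak of 19 tags that begins 25 bp from the window (chrX:107717337-107718992) and another of 15 tags at the neighbouring start. A wide MR49F BRG1 peak inside the gene (chrX:107721467-107732673) was the strongest of the window in its list, with a −log10 q of 84.1 and 95 tags. In all, 5 regions were MR49F-only. The strongest of them lay inside the gene, 24.9 kb upstream of the nearest internal start (chrX:107741338-107743090), with 41 BRG1 and 58 SMARCC2 tags. The others begin at 107683137, 107710593, 107771669 and 107849741 and had 15 to 38 tags, and the 3 regions in all 4 lists begin at 107626054, 107668376 and 107857128. The pair of starts at the far end of the gene, those of the long isoforms, held no peak in any list.

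PER1, a circadian clock repressor whose transcription also responds to glucocorticoids, is a short gene in a gene-dense part of chromosome 17 (chr17:8140472-8152404, minus strand). It had 13 LNCaP BRG1, 3 LNCaP SMARCC2, 19 MR49F BRG1 and 18 MR49F SMARCC2 peaks. The share was 59.4% (42.3 to 74.5) with BRG1 and 85.7% (65.4 to 95.02) with SMARCC2. In LNCaP 3 of 13 BRG1 peaks overlapped a SMARCC2 peak, against 16 of 19 in MR49F. Local background ratios were 0.939 and 1.09.

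Inside the PER1 span LNCaP had 0 peaks and MR49F had 1 with each antibody. That MR49F-only region covers the start (chr17:8151333-8152746), with 34 BRG1 and 45 SMARCC2 tags. Another MR49F-only region 2.08 kb upstream (chr17:8153873-8156233) was stronger, with 85 and 126 tags and −log10 q of 53.8 and 106. The MR49F SMARCC2 peak there was the strongest of the window in its list. The other 4 MR49F-only regions begin at 8066111, 8175472, 8185449 and 8188161, of which the second lies at the start of TMEM107 and the last at the start of BORCS6. The 3 regions in all 4 lists included the starts of VAMP2 and ALOXE3, so many of the peaks counted for PER1 lie at other genes. The other such region (chr17:8055211-8063617) held the strongest BRG1 peak of the window in each line. Its summit tags were 39 in LNCaP BRG1, 25 in LNCaP SMARCC2, 108 in MR49F BRG1 and 93 in MR49F SMARCC2.

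TIPARP encodes a mono-ADP-ribosyltransferase of the aryl hydrocarbon receptor response (chr3:156674590-156706770, plus strand). It was the gene with more LNCaP peaks: 7 LNCaP BRG1, 5 LNCaP SMARCC2, 3 MR49F BRG1 and 2 MR49F SMARCC2. The MR49F share was 30.0% (10.8 to 60.3) with BRG1 and 28.6% (8.22 to 64.1) with SMARCC2. Only the SMARCC2 interval excluded the whole lists, by less than 1 percentage point, and both include equal numbers. Local background moved the same way, with the lowest ratios of the 9 genes (0.811 and 0.827), and its part in the counts was not tested.

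Inside TIPARP, 4.60 kb downstream of the nearest start, a region in all 4 lists (chr3:156680733-156682101) held the strongest LNCaP peaks of the window. Summit tags were 82 in LNCaP BRG1, 98 in LNCaP SMARCC2, 51 in MR49F BRG1 and 56 in MR49F SMARCC2. In LNCaP it ranked 217 among BRG1 and 253 among SMARCC2 peaks (percentiles 99.4 and 99.0), and in MR49F it lay at percentiles 83.6 and 85.0. The region at the start (chr3:156674645-156676259) had the opposite order, with percentiles of 79.4 and 53.4 in LNCaP and 91.5 and 87.0 in MR49F. The 2 LNCaP-only regions lay 44.3 kb upstream (chr3:156629916-156630960), with 32 and 38 tags, and in the gene (chr3:156691861-156693084), with 19 and 25. TIPARP had no MR49F-only region.

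**Figure D4:**
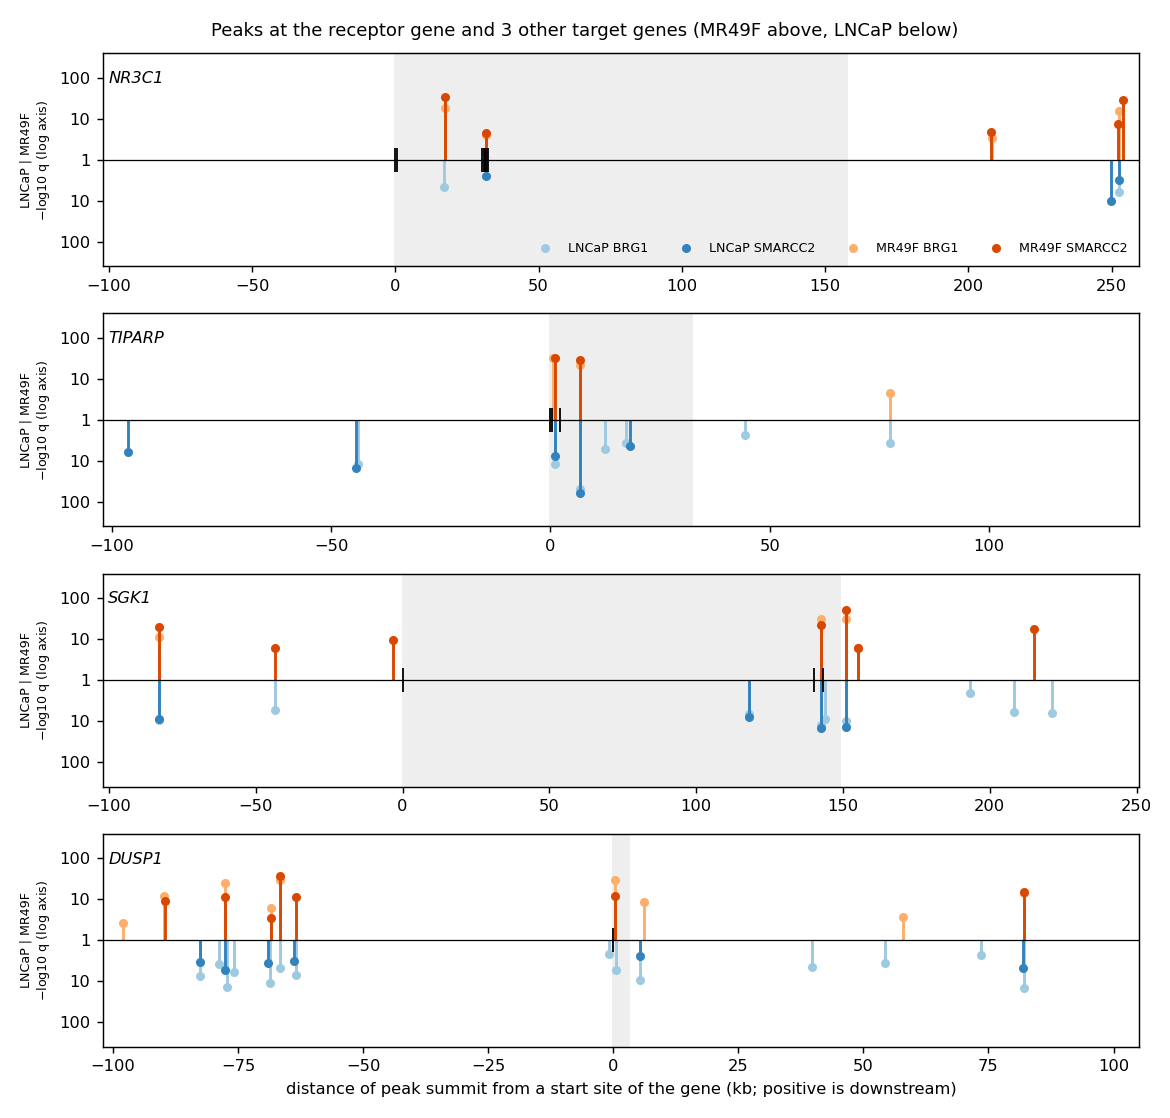
Summit positions (x axis, kb from a start site, positive downstream) and −log10 q (y axis, log scale) of every peak at NR3C1, TIPARP, SGK1 and DUSP1, with MR49F above and LNCaP below the line; shading is the gene span and black ticks are start sites. TIPARP has its strongest LNCaP peaks inside the gene, and SGK1 has peaks of all 4 libraries at an internal start.

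SGK1 encodes a serum- and glucocorticoid-regulated kinase that controls ion channels and cell survival (chr6:134169256-134318112, minus strand). It had 9 LNCaP BRG1, 4 LNCaP SMARCC2, 4 MR49F BRG1 and 7 MR49F SMARCC2 peaks. The shares were 30.8% (12.7 to 57.6) with BRG1 and 63.6% (35.4 to 84.8) with SMARCC2, and the background ratios were 0.885 and 0.848. The start nearest the gene's far end was occupied in all 4 lists (chr6:134174066-134176467), with 42 LNCaP BRG1, 47 LNCaP SMARCC2, 52 MR49F BRG1 and 45 MR49F SMARCC2 tags. Both lines and both antibodies were thus close in tags at this start, with tags not scaled for depth. Another region in all 4 lists just beyond the gene's end (chr6:134166235-134167669) had 29, 35, 64 and 79 tags in the same order. SGK1 held 1 LNCaP-only region inside the gene (chr6:134199848-134200491) and 1 MR49F-only region (chr6:134162868-134163464), each with 26 tags or fewer, and the third region in all 4 lists lay 82.9 kb upstream of the gene.

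DUSP1 encodes a phosphatase that inactivates MAP kinases and is a rapid glucocorticoid target (chr5:172768096-172771195, minus strand). It had 14 LNCaP BRG1, 6 LNCaP SMARCC2, 9 MR49F BRG1 and 7 MR49F SMARCC2 peaks. The shares were 39.1% (22.2 to 59.2) and 53.8% (29.1 to 76.8), with background ratios of 0.942 and 1.09. At the start (chr5:172770172-172772300) −log10 q was 5.38 in LNCaP BRG1, 28.8 in MR49F BRG1 and 12.3 in MR49F SMARCC2, with no LNCaP SMARCC2 peak. The summit tags were nearer to each other, at 40, 52 and 37. Most of its other regions, 8 of 14, lay inside neighbouring genes, chiefly ERGIC1. The LNCaP-only region (chr5:172852954-172854357) and the MR49F-only region (chr5:172859644-172861661) were both there. Since the DUSP1 span is short, its counts rest largely on the 100 kb on either side.

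ZBTB16 encodes PLZF, a zinc finger repressor that is strongly induced by glucocorticoids and androgens (chr11:114059711-114256770). It held 42 LNCaP BRG1, 27 LNCaP SMARCC2, 33 MR49F BRG1 and 41 MR49F SMARCC2 peaks, more than 99.9% of genes over all lists. The shares were 44.0% (33.3 to 55.3) and 60.3% (48.4 to 71.1), and the background ratios 1.05 and 1.07. Of its 49 regions, 15 were in all 4 lists, so ZBTB16 supplied 15 of the 35 such regions of the 9 genes. Both lines thus covered the gene densely, and its span held 30, 22, 22 and 27 of the peaks in LNCaP BRG1, LNCaP SMARCC2, MR49F BRG1 and MR49F SMARCC2.

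A single region inside ZBTB16 (chr11:114176245-114180952) was among the strongest of the genome in every list. It ranked 6 of 36174 in LNCaP BRG1 with 210 summit tags, 3 of 25706 in LNCaP SMARCC2 with 435, 2 of 44308 in MR49F BRG1 with 434, and 1 of 47615 in MR49F SMARCC2 with 1141. The authors' fold over local background was 18.6, 36.5, 39.5 and 114 in the same order. The 4 summits lay within 22 bp of each other, 119.7 kb from the lower end of the span. The second-strongest peak of the window had a fold of 8.92 in LNCaP BRG1, 7.60 in LNCaP SMARCC2, 13.3 in MR49F BRG1 and 19.8 in MR49F SMARCC2. Local background at the region was itself high, between 9.02 and 10.0 tags, at percentiles 93.3 and 93.7 of the LNCaP lists and 98.8 and 98.9 of the MR49F lists, and its part in the peak was not tested.

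**Figure D5:**
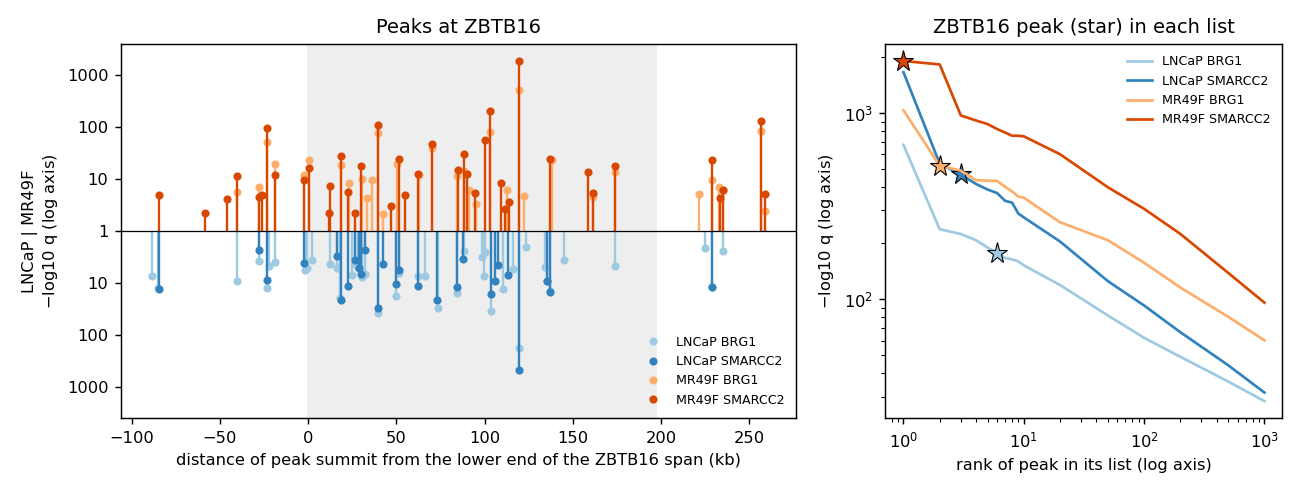
Left, summit positions (x axis, kb from the lower end of the ZBTB16 span) and −log10 q (y axis, log scale) of every peak at ZBTB16, MR49F above and LNCaP below the line, with the span shaded; right, −log10 q against rank in each list (both log scales), with a star at the ZBTB16 peak. The star lies at rank 6, 3, 2 and 1 in LNCaP BRG1, LNCaP SMARCC2, MR49F BRG1 and MR49F SMARCC2.

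Regions of a single line at ZBTB16 comprised 5 that were MR49F-only and 1 that was LNCaP-only. The strongest MR49F-only region lay beyond NNMT, 59.4 kb past the span (chr11:114315434-114316969), with 112 BRG1 and 146 SMARCC2 tags, and was the strongest BRG1 region of this class at the 9 genes. Its −log10 q of 84.0 and 133 lay in the top 10% of both lists. The other MR49F-only regions, which begin at 114154187, 114220592, 114292180 and 114318289, had 17 to 32 tags, and the LNCaP-only region (chr11:114091425-114093005) had 27 and 26.

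Over all called peaks, the overlap of the 2 antibodies at these genes was smaller in LNCaP than in MR49F, with intervals that do not meet. In LNCaP, 48 of 106 BRG1 peaks (45.3%, 36.1 to 54.8) shared at least 1 bp with a SMARCC2 peak, against 55.3% of the whole list. In MR49F it was 91 of 115 (79.1%, 70.8 to 85.6), against 79.8%. The whole lists differ in the same direction. The LNCaP SMARCC2 list is the shortest of the 4. With lists of equal length, the 10000 strongest peaks of each, the overlap was 69.2% (50.0 to 83.5) in LNCaP and 74.4% (58.9 to 85.4) in MR49F, and the intervals overlap widely. In the other direction, 53 of 60 LNCaP SMARCC2 peaks (88.3%, 77.8 to 94.2) and 97 of 120 MR49F SMARCC2 peaks (80.8%, 72.9 to 86.9) met a BRG1 peak, against 80.1% and 75.7%. Peaks in the top 10% of their list made up 10 of 106 LNCaP BRG1, 5 of 60 LNCaP SMARCC2, 25 of 115 MR49F BRG1 and 20 of 120 MR49F SMARCC2 peaks, or 9.43%, 8.33%, 21.7% and 16.7%. The MR49F shares stood above the 10% of a whole list, and the LNCaP shares stood near it.

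Other genes of the pathway had MR49F shares of peaks close to those of the whole lists. Of 40 genes, all matched, 23 had more MR49F peaks with both antibodies (background 57.0%). With both antibodies 3 had more LNCaP peaks (background 4.17%), and 5 had at least 2 times as many in MR49F (background 20.1%). Their BRG1 counts, summed gene by gene, came to 319 in LNCaP and 372 in MR49F (53.8% in MR49F, against 55.1% over the whole lists). Their SMARCC2 counts came to 209 and 370 (63.9%, against 64.9%). In these sums a peak that lies in the windows of several genes counts for each of them. Among 11 receptor folding and cofactor genes 6 had more MR49F peaks and 0 more LNCaP peaks. Among 3 genes of ligand metabolism and the mineralocorticoid receptor the numbers were 2 and 0, and among 26 further targets 15 and 3. The backgrounds of 57.0% and 4.17% apply to each group as well.

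Among these, 4 genes differed by at least 2 times with both antibodies and held regions of a single line. FKBP4, the HSP90 cochaperone that favours the receptor's transport to the nucleus, had 4 LNCaP BRG1, 1 LNCaP SMARCC2, 12 MR49F BRG1 and 10 MR49F SMARCC2 peaks, with 7 MR49F-only regions. GADD45B, a stress response gene, had 6, 1, 13 and 11 peaks in the same order and 5 such regions. TAT, the liver's tyrosine aminotransferase and a classic receptor target, had 3, 1, 6 and 7 peaks and 4 such regions. HIF3A, of the hypoxia response, had 1, 1, 6 and 6 peaks and 3 such regions. The 3 genes with more LNCaP peaks were MT1X, KLF4 and BIRC3, each by less than 2 times.

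The limit of 100 kb is a threshold of the selection. The member nearest the edge on the inside was a DUSP1 peak of MR49F BRG1, 2031 bp within it with a −log10 q of 2.61, and the nearest outside was another DUSP1 peak of MR49F BRG1, 2878 bp beyond it with 7.39. A strong MR49F SMARCC2 peak near NR3C1, with a −log10 q of 87.4, lay 25929 bp outside.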

How the data were processed

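The 4 peak lists used were 1 each for LNCaP BRG1, LNCaP SMARCC2, MR49F BRG1 and MR49F SMARCC2, without the 2 inputs, which were not analysed here. BWA 0.7.10, SAMtools, MACS2 2.1.0 and hg38 are listed, per the submitters' processing notes, with no role. What served as control, and how duplicates and reads were filtered, is not given in these sources. Peaks as deposited carry the authors' fold enrichment (a ratio over local background) and the authors' −log10 p and −log10 q. A deposited display score follows the −log10 q and was not used. Each list comes from 1 library, with no pooling.

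Summit tags and local background were solved from the authors' fold and p as MACS2 computes them (Poisson). All peaks gave whole tags within a tolerance of 0.06% of −log10 p, with list-wide scales of 0.971, 0.920, 1 and 1 in the order above. The solution and the joining of peaks were checked on simulated data, and the intervals were not. Local background is the median over the peaks of a 10 Mb window, relative to autosomes of the same list. A peak belonged to a gene when its summit lay in the RefSeq GRCh38.p14 span extended by 100 kb. Peaks sharing at least 1 bp were joined into regions. Intervals are Wilson 95% and cover counting error only. With 1 library per line and antibody no test was run and no p-value computed. Python 3.11.15, NumPy 2.4.6, pandas 2.3.3, SciPy 1.17.1 and matplotlib 3.10.9 were used.

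The 9 genes, the 40 pathway genes and the marker lists were chosen with earlier results of these data known. All 9 genes were described. Single peaks were named under a rule: the strongest per gene and list, regions of both antibodies in 1 line, and regions within 1 kb of a gene end. Not every peak that met this rule is named. A few further regions and those in all 4 lists were named after their values were seen. Pathway genes were named at a difference of at least 2 times with both antibodies and at least 1 region of a single line. Windows of 10 and 50 kb, assignment to the nearest span, a −log10 q of 5 or more, the 10000 strongest peaks, peak midpoints, stricter overlap, 5 Mb background windows and leaving out each gene were tried. Counting a LNCaP peak within 1 kb of a promoter window, and leaving ZBTB16 out of the peak locations, were added after seeing the data. No genome sequence was used. ZBTB16 was not matched in the promoter table.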

Additional observations from a re-analysis of the deposited data

Results flagged for a closer look

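At 3 genes the order of the antibodies turned between the lines, with BRG1 peaks more numerous than SMARCC2 peaks in LNCaP and fewer in MR49F. In LNCaP, FKBP5 carried 6 peaks with BRG1 and 3 with SMARCC2, and in MR49F 14 and 16. For SGK1 the LNCaP numbers were 9 and 4, and the MR49F numbers 4 and 7. For ZBTB16 they were 42 and 27, and 33 and 41. The difference was not tested, since each value is 1 library. The same turn was found at 20.3% of protein-coding genes with a peak, and the whole lists turn the same way, from 36174 with BRG1 against 25706 with SMARCC2 for LNCaP to 44308 against 47615 for MR49F.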

How the results depend on the processing

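Of the results on the 9 genes as a list, 65 values stayed near the main one and 17 moved. A share counted as stayed when it fell inside the interval of the main run, and a count when it lay within 1.5 times. The BRG1 share, 52.0% with an interval that includes 50%, fell to the LNCaP side at 49.2% with the nearest span and 49.7% without TSC22D3. Genes with more MR49F peaks by both antibodies numbered 5 in each alternative run except a −log10 q of at least 5, where there were 6, and those with more LNCaP peaks numbered 1 in each, TIPARP except among the 10000 strongest peaks, where it was ZBTB16. At a −log10 q of at least 5, ZBTB16 had 27 MR49F and 26 LNCaP BRG1 peaks, a turned order. DUSP1 SMARCC2 peaks were 1 and 1 with 10 kb, 50 kb and the nearest span. The region counts below follow window and list length by construction, since a smaller window or a shorter list holds fewer regions. Shares of all regions were not computed for these settings, so the counts do not show whether the shares changed. MR49F-only regions numbered 15 with gene spans extended by 10 kb, 16 with assignment to the nearest span and 13 with the 10000 strongest peaks of each list. LNCaP-only regions numbered 3 with 10 kb, 3 when a −log10 q of at least 5 was required, and 3 for the 10000 strongest peaks. Regions in all 4 lists numbered 18 with 10 kb, 21 with the nearest span, 12 with the 10000 strongest peaks, 21 when summits within 200 bp counted as shared and 20 with reciprocal overlap of at least 50%. MR49F-only regions numbered 31 at a −log10 q of at least 5, 26 by summits and 33 by reciprocal overlap.

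With the 10000 strongest peaks the MR49F share was 60.0% (47.9 to 71.0) with BRG1 and 59.7% (47.3 to 71.0) with SMARCC2. Whole lists of equal length give equal numbers, which both intervals include. The overlap of LNCaP BRG1 peaks with SMARCC2 peaks was 69.2% with the 10000 strongest peaks, 29.2% by summits and 26.4% by reciprocal overlap, and that of MR49F BRG1 peaks was 74.4%, 54.8% by summits and 59.1% by reciprocal overlap. Leaving out each gene in turn gave BRG1 shares of 49.7% to 56.2% and SMARCC2 shares of 64.2% to 70.5%, with the highest of each pair reached without ZBTB16. Of the values for single genes, 105 stayed and 22 moved. The intervals of single genes are wide, so a share that stayed shows little. Some that stayed had turned or equal order, such as the ZBTB16 BRG1 peaks at a −log10 q of at least 5. Local background in 5 Mb windows lay within 0.798 to 1.32 with BRG1 and 0.858 to 1.21 with SMARCC2. Promoters with MR49F peaks and no LNCaP peak fell from 7 to 2 when a LNCaP peak within 1 kb counted, an alternative added after seeing the data. No paired analysis was possible because each line and antibody has 1 library. Library totals were not used here. The lowest called summits had 10 to 14 tags, but a call also depends on local background, so these numbers do not bound a missing peak. At ZBTB16 (chr11:114040410-114041881) a LNCaP BRG1 summit of 50 tags had a −log10 q of only 3.99.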
